A study of Homo sapiens with 22 samples.

Results

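The 8 genes described here take up, store, export or sense cellular iron: TFRC, STEAP3, SLC11A2, FTH1, FTL, SLC40A1, ACO1 and IREB2. They were taken by symbol from the 48162 Ensembl genes of an RNA-seq count table, and each symbol matched 1 Ensembl ID. The set was put together with the knowledge that TFRC was lower with both shRNAs, so the TFRC values against the control are given as a description with no test. The cells were Kasumi-1, an established human acute myeloid leukaemia line that carries the RUNX1-RUNX1T1 fusion, grown in RPMI with fetal bovine serum. They had received a lentivirus with a control shRNA (control), with the first shRNA against FIP1L1 (shRNA 1) or with the second (shRNA 2), and all 3 groups were then selected with puromycin. FIP1L1 is a subunit of the complex that recognises poly(A) signals and directs cleavage and polyadenylation of pre-mRNA. Each group had 4 RNA-seq libraries, 12 in all. The labels call the replicates biological without saying whether each came from its own transduction, so the tests weigh differences against the spread among these libraries, which may be technical. The sources used here do not give the time from transduction to harvest.

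Most cells take up iron as transferrin bound to transferrin receptor 1 (TFRC), reduce it in endosomes with STEAP3 and move it to the cytosol through DMT1 (SLC11A2). Iron that is not used is stored in ferritin, a shell of heavy (FTH1) and light (FTL) chains, or leaves the cell through ferroportin (SLC40A1). The iron regulatory proteins IRP1 (ACO1) and IRP2 (IREB2) bind stem-loops called iron-responsive elements (IREs) when iron is scarce. An IRE in the 5′ UTR, as in the ferritins and ferroportin, then blocks translation, and IREs in the 3′ UTR of TFRC protect that mRNA from decay. RNA-seq reads the mRNA level only, so translation and protein were not measured.

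The stem-loops are shown first because they separate the members into groups by where the element lies. The motif searched was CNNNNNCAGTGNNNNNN, which is a bulged C, 5 bases of upper stem, the loop CAGTGN and 5 bases of returning stem. At least 4 of the 5 stem positions had to pair, G-T pairs included. The search ran over annotated UTRs of GENCODE 29 protein-coding transcripts on GRCh38, on the transcript strand only, and the motif overlaps no other motif searched. Each sequence runs 5′ to 3′ along the transcript over 30 bases, with the loop in capitals and thymine in place of uracil.
TFRC 3′ UTR, match 1: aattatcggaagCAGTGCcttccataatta
TFRC 3′ UTR, match 2: cattatcgggagCAGTGTcttccataatgt
TFRC 3′ UTR, match 3: ctgtatcggagaCAGTGAtctccatatgtt
TFRC 3′ UTR, match 4: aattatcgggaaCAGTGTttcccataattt
SLC11A2 3′ UTR: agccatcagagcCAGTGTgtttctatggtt
FTH1 5′ UTR: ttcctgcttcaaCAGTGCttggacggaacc
FTL 5′ UTR: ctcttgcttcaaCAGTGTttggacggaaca
SLC40A1 5′ UTR: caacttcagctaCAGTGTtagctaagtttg

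In TFRC the matches lay on the minus strand at chr3:196050978-196051007, chr3:196050574-196050603, chr3:196050509-196050538 and chr3:196050462-196050491, in all 3 transcripts with all 5 stem positions paired. The SLC11A2 match at chr12:50988268-50988297 (minus strand) had 4 pairs and was present in 5 of 11 transcripts. The FTH1 match at chr11:61967573-61967602 (minus strand) was in 5 of 6 transcripts. The FTL match at chr19:48965335-48965364 (plus strand) and the SLC40A1 match at chr2:189580660-189580689 (minus strand) were in the only transcript of each gene. These 3 matches in 5′ UTRs each had all 5 positions paired. ACO1 and IREB2 each had 1 match with 4 pairs in a 3′ UTR, and the 4 STEAP3 transcripts had none.

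A match is a description and not a shown binding site. Of 19501 protein-coding genes, 1.24% held a match in a 5′ UTR and 4.55% in a 3′ UTR. TFRC was among 5 genes with 3 or more matches in one 3′ UTR. Among genes with a UTR within 20% of the same length, a match was held by 6.61% for the TFRC 3′ UTR, 6.05% for that of SLC11A2, 0.99% for the FTH1 5′ UTR, 0.529% for that of FTL and 1.67% for that of SLC40A1.

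FIP1L1 itself was at 37.1% of the control with shRNA 1 and at 47.4% with shRNA 2 (log2 −1.43 and −1.08; edgeR quasi-likelihood test, Benjamini-Hochberg adjusted p = 1.92e-11 and 3.01e-09). Exons of LNX1 on the other strand cover 1560 of the 5636 FIP1L1 exonic bases. Reads of the 2 may not have been told apart there, because the strand setting of the counting is not known. Libraries held 12236937 to 20388437 counts. Levels below are CPM, the reads of a gene scaled to library size, after TMM scaling. The shRNA 1 libraries stood further apart than those of the other groups: in a chi-square test of counts between libraries of 1 group, the statistic per degree of freedom ran from 3.59 to 7.34 in the control, from 3.91 to 29.4 with shRNA 1 and from 3.89 to 6.37 with shRNA 2. The shRNA 1 libraries 3 and 4 were close to each other (3.91) and far from libraries 1 and 2 (14.1 to 29.4), so fits without each pair were made for the 8 genes and the other genes named, and are given where they change a call or the size of a called difference. The 4 markers of Kasumi-1 and myeloid progenitors (RUNX1T1, KIT, CD34, MPO) were present in every library, and their summed level was 17228 to 19325 CPM in the control, 7553 to 9723 with shRNA 1 and 10121 to 12681 with shRNA 2. Most of the sum was MPO (15438 to 17349 CPM in the control). MPO, RUNX1T1 and CD34 lay below the control range with both shRNAs. KIT was at 1368 to 1510 CPM in the control, 1068 to 1359 with shRNA 1 and 1400 to 1491 with shRNA 2. The sum moved with the knockdown, and its part in the results below was not tested. The 10 erythroid markers, relevant because red cell precursors take up much iron, summed to 3.32 to 9.27 CPM in the control, 4.73 to 5.75 with shRNA 1 and 4.04 to 4.99 with shRNA 2. HBB, HBG1 and AHSP had no read in any library. Macrophage markers (7 of 8 in the table) summed to 34.0 to 57.7 CPM in the control, 26.0 to 48.1 with shRNA 1 and 32.1 to 60.9 with shRNA 2, mostly from VSIG4 and CSF1R, with CD163 at 0. The 5 lymphoid markers summed to 6.01 to 9.82, 2.86 to 4.46 and 15.6 to 18.9 CPM in the same order, with MS4A1 at 0.

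**Figure D1:**
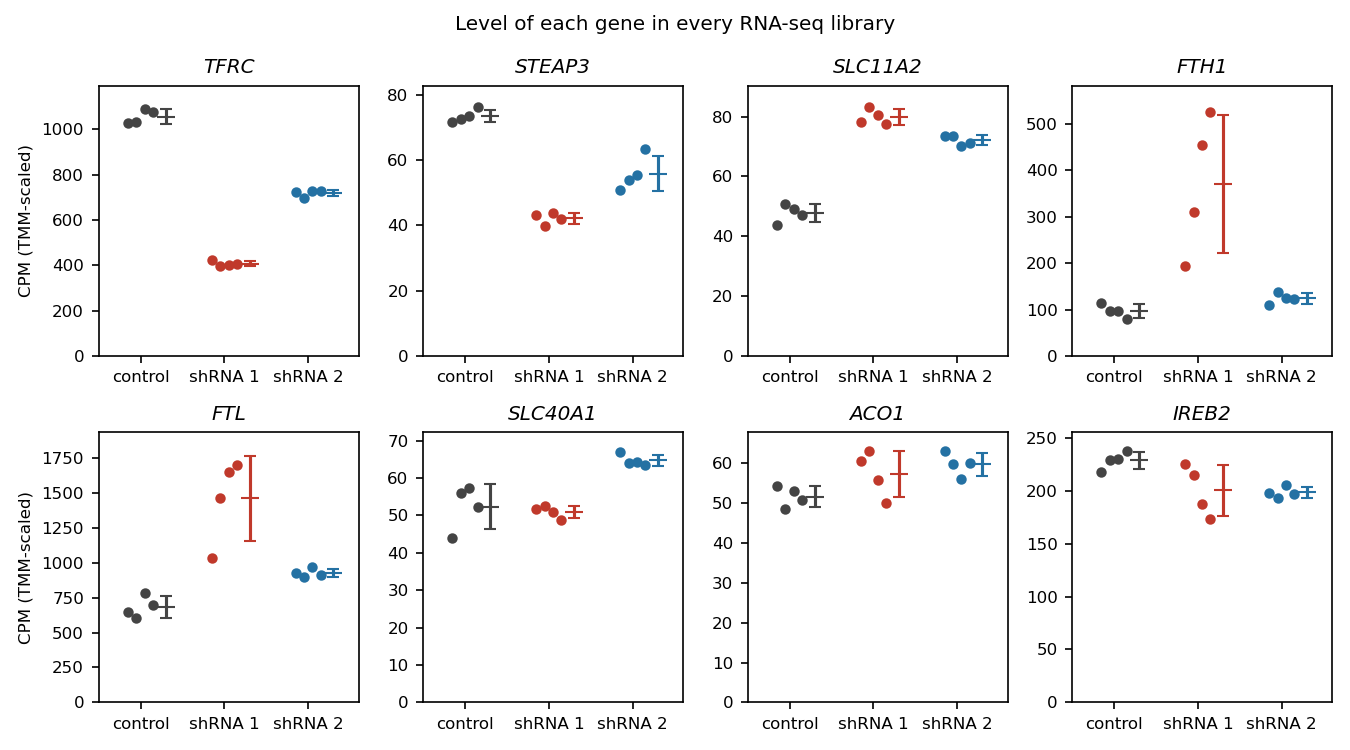
Level of each of the 8 genes in CPM (TMM-scaled, axes from 0) in every RNA-seq library; points are libraries 1 to 4 of each group from left to right, and the bar beside them is the mean ± SD (n = 4). TFRC and STEAP3 lie lower with both shRNAs, SLC11A2 and FTL lie higher with both, and the 4 FTH1 values with shRNA 1 spread from 194 to 526 CPM.

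Among the uptake genes, TFRC was lower with both shRNAs, STEAP3 fell with both and SLC11A2 rose with both. TFRC (chr3:196027183-196082189, minus strand) encodes the receptor for transferrin. Its level was 1027, 1030, 1088 and 1076 CPM in control libraries 1 to 4. With shRNA 1 it was 423, 397, 402 and 406 CPM. With shRNA 2 it was 722, 698, 728 and 729 CPM. The 3 groups did not overlap, and the order was control, shRNA 2, shRNA 1. The mean was 1055 ± 31.6 (SD, n = 4) in the control, 407 ± 11.3 with shRNA 1 and 719 ± 14.2 with shRNA 2. The log2 difference from the control was −1.38 (SE 0.06) with shRNA 1 and −0.55 (SE 0.06) with shRNA 2, which are the values the choice of genes rests on. The 2 shRNAs differed from each other, a contrast that the choice did not use: TFRC was 0.82 higher on the log2 scale with shRNA 2 than with shRNA 1 (SE 0.06, edgeR adjusted p = 1.48e-11). In bulk libraries, fewer cells of a type and less RNA per cell cannot be told apart, and this holds for every level given here.

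STEAP3 (chr2:119223831-119265652, plus strand) encodes the endosomal reductase that makes iron fit for transport. Its level was 71.7, 72.7, 73.6 and 76.2 CPM in the control. It was 43.1, 39.7, 43.8 and 42.0 CPM with shRNA 1. It was 50.8, 53.8, 55.5 and 63.5 CPM with shRNA 2. No group overlapped another, and the order was that of TFRC. The log2 level of STEAP3 fell by 0.80 with shRNA 1 (SE 0.08; edgeR adjusted p = 4.59e-09) and dropped by 0.40 with shRNA 2 (SE 0.08; edgeR adjusted p = 0.000123). It was 0.41 higher with shRNA 2 than with shRNA 1 (SE 0.08, edgeR adjusted p = 8.11e-05). Exons of STEAP3-AS1 on the other strand cover 500 of the 4562 STEAP3 exonic bases, and reads of the 2 may not have been told apart there.

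SLC11A2 (chr12:50979401-51028566, minus strand) encodes DMT1, the transporter of ferrous iron. Its level was 43.8, 50.9, 49.0 and 47.1 CPM in the control. It was 78.0, 83.1, 80.6 and 77.6 CPM with shRNA 1. It was 73.5, 73.6, 70.2 and 71.2 CPM with shRNA 2. Every knockdown library was above every control library. The log2 level of SLC11A2 rose by 0.74 with shRNA 1 (SE 0.07; edgeR adjusted p = 2.56e-09) and by 0.60 with shRNA 2 (SE 0.07; edgeR adjusted p = 1.36e-07). The shRNA 2 values all lay below those with shRNA 1, but this difference of −0.15 did not pass the test (95% interval −0.30 to 0.0041, edgeR adjusted p = 0.0631). It passed with scaling by total counts (−0.26, adjusted p = 0.00203), where the median of all genes was −0.13. It also passed in a fit of these 2 groups alone (adjusted p = 0.048). Counts per gene do not tell the transcripts with the 3′ stem-loop shown above from those without it.

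The storage genes were both higher with shRNA 1, and FTL was higher with shRNA 2 as well. FTH1 (chr11:61959718-61967660, minus strand) encodes the heavy chain, the one with ferroxidase activity. Its level was 115, 96.6, 96.0 and 79.2 CPM in the control. With shRNA 1 it was 194, 309, 454 and 526 CPM. With shRNA 2 it was 109, 138, 125 and 123 CPM. All shRNA 1 libraries were above all others, and spread widely among themselves (371 ± 149 CPM, SD, n = 4), while shRNA 2 overlapped the control. With shRNA 1 the log2 level of FTH1 rose by 1.94 (SE 0.28; edgeR adjusted p = 0.000205). With shRNA 2 the difference from the control was 0.36 (95% interval −0.27 to 0.99, edgeR adjusted p = 0.321). The 2 shRNAs differed by −1.58, shRNA 2 being lower (SE 0.28, edgeR adjusted p = 0.000718).

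The size of the FTH1 rise with shRNA 1 depended on the libraries. It was 1.38 (edgeR adjusted p = 0.000378) with libraries 3 and 4 of shRNA 1 left out and 2.34 (edgeR adjusted p = 8.72e-09) with libraries 1 and 2 left out. Between the shRNAs it was −1.02 and −1.98 in the same order. The FTH1 difference of 0.36 with shRNA 2 passed the test where libraries 1 and 2 of shRNA 1 left the fit (adjusted p = 0.0139) and in a fit of control and shRNA 2 alone (adjusted p = 0.00758). BEST1 on the other strand covers 62.4% of the exonic bases of FTH1. BEST1 was at 6.35 to 8.37 CPM in the control, 12.9 to 18.5 with shRNA 1 and 5.14 to 6.96 with shRNA 2, and its part in the FTH1 values was not tested. The 25 annotated FTH1 pseudogenes held 1.26% to 4.41% of their reads summed with those of FTH1. Adding them left the FTH1 rise with shRNA 1 at 1.92 (edgeR adjusted p = 0.000218).

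FTL (chr19:48965301-48966878, plus strand) encodes the light chain, which helps iron mineralise inside the shell. Its level was 649, 604, 782 and 698 CPM in the control. With shRNA 1 it was 1030, 1463, 1646 and 1701 CPM. With shRNA 2 it was 927, 901, 970 and 911 CPM. The groups did not overlap, and the order of control, shRNA 2 and shRNA 1 was the reverse of that of TFRC. The log2 level of FTL rose by 1.10 with shRNA 1 (SE 0.13, edgeR adjusted p = 2.21e-06) and by 0.44 with shRNA 2 (SE 0.12, edgeR adjusted p = 0.00816). It was 0.66 lower with shRNA 2 than with shRNA 1 (log2 −0.66, SE 0.12, edgeR adjusted p = 0.000329). The rise with shRNA 1 was 0.86 with libraries 3 and 4 of shRNA 1 left out and 1.29 with libraries 1 and 2 left out, and the difference between the shRNAs was −0.42 and −0.85. The 16 annotated FTL pseudogenes held at most 0.394% of the summed reads.

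The balance of the ferritin chains was read as FTH1 reads over FTL reads within each library, which does not depend on scaling. The ratio was 0.177, 0.160, 0.123 and 0.113 in the control. It was 0.188, 0.211, 0.276 and 0.309 with shRNA 1. It was 0.118, 0.153, 0.129 and 0.135 with shRNA 2. The shRNA 1 libraries all had a higher share of heavy chain reads than the others, and shRNA 2 lay within the range of the control. On the log2 scale shRNA 1 exceeded the control by 0.78 (2-sided exact permutation test of 4 against 4, p = 0.0286, the smallest it can give, adjusted p = 0.0429 over 6 ratio tests). The shRNA 2 difference from the control was −0.08 (exact p = 0.657, adjusted p = 0.657). Between the shRNAs it was −0.86 (exact p = 0.0286, adjusted p = 0.0429). The call against the control was lost without library 2, 3 or 4 of either group (adjusted p = 0.0571 to 0.0857). That between the shRNAs was lost without shRNA 1 library 2, 3 or 4 or shRNA 2 library 1, over the same range. Ratios were not computed again without pairs of shRNA 1 libraries. Libraries 1 and 2 of shRNA 1 (0.188 and 0.211) lay nearer the control than libraries 3 and 4 (0.276 and 0.309). In the control, libraries 1 and 2 (0.177 and 0.160) lay above libraries 3 and 4 (0.123 and 0.113). The size of the difference thus depended on the libraries. The FTH1 limits above apply to this ratio.

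**Figure D2:**
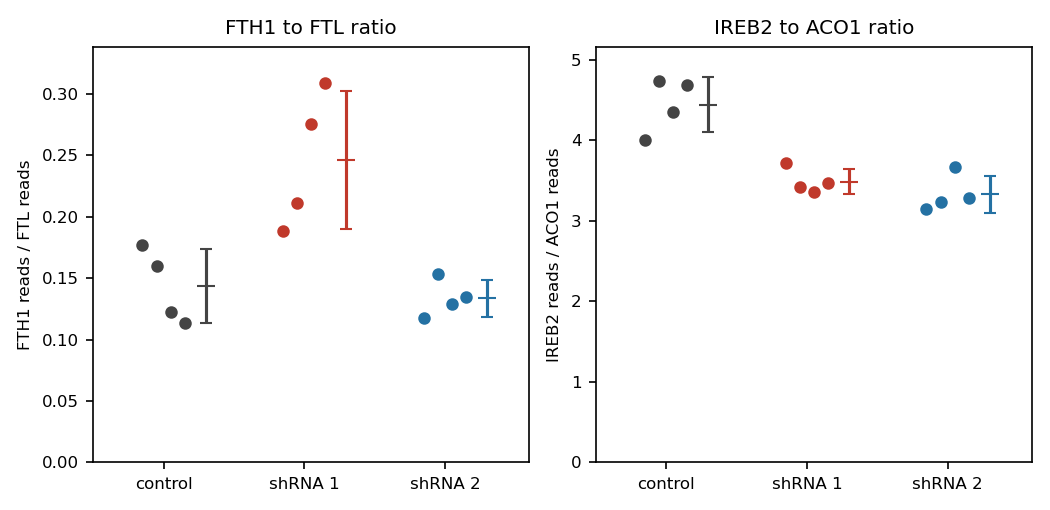
Ratio of FTH1 to FTL reads (left) and of IREB2 to ACO1 reads (right) in every RNA-seq library, on linear axes from 0; points are libraries and bars the mean ± SD (n = 4). The FTH1 to FTL ratio is 0.188 to 0.309 with shRNA 1 against 0.113 to 0.177 in the control, and the IREB2 to ACO1 ratio is below every control library with both shRNAs.

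The export gene SLC40A1 rose with shRNA 2 and did not pass the test with shRNA 1. SLC40A1 (chr2:189560579-189583758, minus strand) encodes ferroportin, the iron exporter of mammalian cells. Its level was 43.9, 55.9, 57.2 and 52.2 CPM in the control. It was 51.6, 52.6, 50.9 and 48.8 CPM with shRNA 1. It was 66.9, 64.1, 64.3 and 63.5 CPM with shRNA 2. The shRNA 1 values lay inside the control range and the shRNA 2 values above all others. The difference from the control was −0.04 with shRNA 1 (95% interval −0.22 to 0.14, edgeR adjusted p = 0.714) and 0.31 with shRNA 2 (SE 0.08, edgeR adjusted p = 0.00242). shRNA 2 exceeded shRNA 1 by 0.34 (SE 0.08, edgeR adjusted p = 0.000656).

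The 2 iron sensors differed little from the control, and their calls were lost when single libraries were left out. ACO1 (chr9:32384603-32454769, plus strand) encodes IRP1, which is a cytosolic aconitase when it holds an iron-sulfur cluster. Its level was 54.3, 48.4, 53.0 and 50.6 CPM in the control. It was 60.6, 63.0, 55.8 and 49.9 CPM with shRNA 1. It was 63.1, 59.7, 56.0 and 60.0 CPM with shRNA 2. The shRNA 2 libraries were above the control and shRNA 1 overlapped both. The difference from the control was 0.15 with shRNA 1 (95% interval −0.03 to 0.33, edgeR adjusted p = 0.105) and 0.21 with shRNA 2 (edgeR adjusted p = 0.0318). The second was lost when control library 2 or 4 or shRNA 2 library 1, 2 or 4 was left out (adjusted p = 0.0592 to 0.0953). The first passed with total counts (0.35, adjusted p = 0.000502), where the median of all genes was 0.21. It also passed without shRNA 1 library 4 (0.21, adjusted p = 0.0244), and without shRNA 1 libraries 3 and 4 (0.26, adjusted p = 0.0105). Without shRNA 1 libraries 1 and 2 it was 0.032 (adjusted p = 0.766).

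IREB2 (chr15:78437431-78501456, plus strand) encodes IRP2, which is degraded when iron is plentiful. Its level was 218, 229, 230 and 237 CPM in the control. It was 225, 215, 187 and 173 CPM with shRNA 1. It was 198, 193, 205 and 197 CPM with shRNA 2. The shRNA 2 libraries were below the control, and shRNA 1 overlapped it through library 1. The difference from the control was −0.19 with shRNA 1 (SE 0.07, edgeR adjusted p = 0.0252) and −0.21 with shRNA 2 (SE 0.07, edgeR adjusted p = 0.0196). The first was lost without control library 4, shRNA 1 library 3 or shRNA 1 library 4 (adjusted p = 0.0682 to 0.0955). It was −0.06 (adjusted p = 0.448) without libraries 3 and 4 of shRNA 1 and −0.35 (adjusted p = 1.39e-05) without libraries 1 and 2. The second was lost without control library 4 or shRNA 2 library 2 (adjusted p = 0.0576 to 0.0592). With total counts neither passed (−0.00023, adjusted p = 0.998, and −0.12, adjusted p = 0.127). The median of all genes was then 0.21 with shRNA 1 and 0.082 with shRNA 2.

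The ratio of IREB2 to ACO1 reads within a library was 4.01, 4.74, 4.35 and 4.69 in the control. It was 3.72, 3.42, 3.36 and 3.47 with shRNA 1. It was 3.14, 3.24, 3.66 and 3.28 with shRNA 2. Both knockdown groups lay below every control library and overlapped each other. On the log2 scale the ratio was 0.35 lower with shRNA 1 (log2 −0.35) and 0.42 lower with shRNA 2 (log2 −0.42), each with exact permutation p = 0.0286 and adjusted p = 0.0429. The 2 shRNAs differed by −0.07 (exact p = 0.314, adjusted p = 0.377). Both calls were lost without control library 2, 3 or 4, the first also without shRNA 1 library 2, 3 or 4 and the second without shRNA 2 library 1 (adjusted p = 0.0571 to 0.0857).

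All 8 genes passed the filter on low counts. With shRNA 1, 6 of 8 passed the test against the control (75.0%), 3 higher (SLC11A2, FTH1, FTL) and 3 lower (TFRC, STEAP3, IREB2), beside 57.3% of all 15834 genes tested. With shRNA 2, 7 of 8 passed (87.5%), 4 higher (SLC11A2, FTL, SLC40A1, ACO1) and 3 lower (the same 3), beside 50.0% of all genes. TFRC was chosen on these contrasts, so nothing is read from these counts. Between the shRNAs 5 of 8 passed (62.5%) beside 58.7% of all genes. The median log2 difference of the 8 genes was 0.06 with shRNA 1 and 0.26 with shRNA 2, against 0.020 and 0.00048 over all genes. Both comparisons use the same 4 control libraries.

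**Figure D3:**
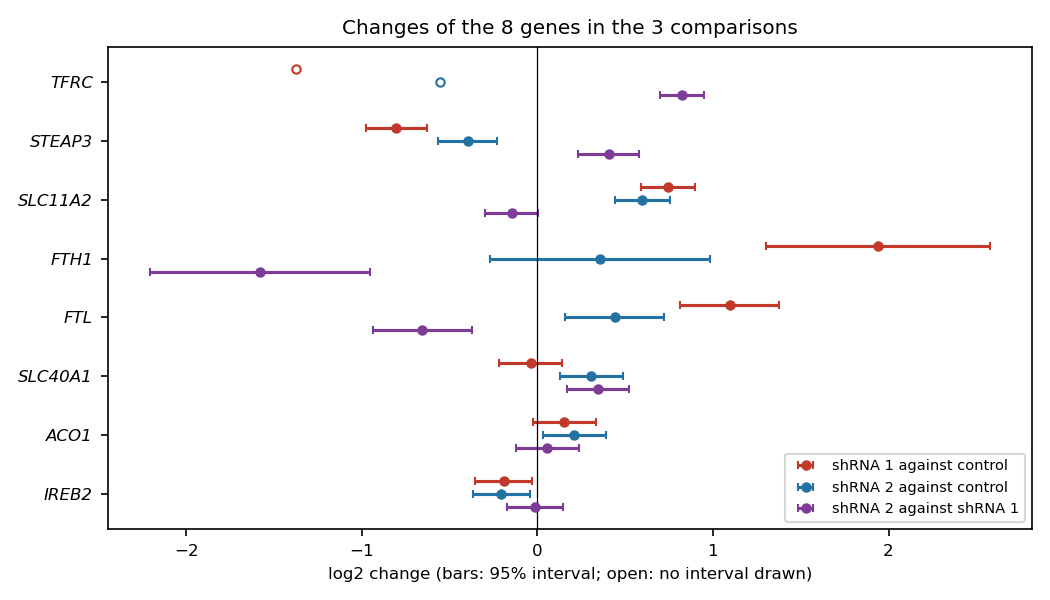
Log2 differences of the 8 genes in the 3 comparisons from the edgeR fit; bars are 95% intervals, and the TFRC points against the control are open without an interval because the genes were chosen with them. In SLC11A2 the shRNA 2 and shRNA 1 points lie close together (0.60 and 0.74), while FTH1 is at 1.94 with shRNA 1 and 0.36 with shRNA 2.

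Compared per kilobase of exonic bases, FTL had the highest level in the control (778 CPM per kb), followed by TFRC (134), FTH1 (47.6), IREB2 (21.2), STEAP3 (16.1), SLC40A1 (12.1), ACO1 (6.83) and SLC11A2 (4.70). No neighbours in this order overlapped over the 4 control libraries. With shRNA 1, FTH1 (183 CPM per kb) stood above TFRC (51.6), and SLC40A1 (11.8) above STEAP3 (9.24). SLC11A2 (7.87) and ACO1 (7.59) overlapped there, so their order is not settled. With shRNA 2, TFRC (91.2 CPM per kb) was still above FTH1 (61.0), SLC40A1 (14.9) was above STEAP3 (12.2), and ACO1 (7.90) was above SLC11A2 (7.11), with no overlap between neighbours. Exonic bases join all annotated transcripts of a gene, which understates genes with unused exons. BEST1 covers 62.4% of the exonic bases of FTH1, and how reads there were counted is not known. If they were dropped, FTH1 is understated, so its place below TFRC in the control and with shRNA 2 is not settled.

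The 5 genes whose profile over the 12 libraries was closest to that of TFRC were ENO1, MEST, FAM20B, GTF3A and TENT5A. The measure was the root mean square difference of log2 CPM (pseudocount 0.5) after centring each gene on its control mean, over 10919 genes with a mean of at least 5 CPM. It was 0.084 for ENO1 and 0.10 for TENT5A. ENO1, the glycolytic enolase, was at 2354 CPM in the control, 927 with shRNA 1 and 1487 with shRNA 2. MEST was at 195, 71.3 and 134 CPM in the same order. These genes were picked for this pattern, so the values are a description.

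Other genes of iron and heme handling were counted from 8 lists of 90 genes, of which 70 passed the filter. With shRNA 1, 51 of 70 were called (72.9%), 24 higher and 27 lower, beside the 57.3% of all genes; with shRNA 2, 34 of 70 (48.6%), 14 higher and 20 lower, beside 50.0%. The median log2 difference of the 70 genes was −0.08 with shRNA 1 and −0.0047 with shRNA 2. With libraries 3 and 4 of shRNA 1 left out, 42 were called with shRNA 1 and 37 with shRNA 2, beside 53.8% and 51.0% of all genes tested in that fit. With libraries 1 and 2 left out, 51 and 40 were called, beside 55.3% and 55.5%. These 2 fits tested 16785 and 16500 genes in all. How many of the listed genes were among them is not given here, so no share is read from these 4 counts. By direction, 28.6% of all genes tested were higher and 28.7% lower with shRNA 1, and 24.7% higher and 25.3% lower with shRNA 2, which is the background to the counts of each list below. The genes named below are the 3 with the highest level in each list, and HMOX1, TFR2, FBXL5, PFN2 and CYBRD1, which were named after their values were seen. Of the 29 genes this gives, 11 share exonic bases with a gene on the other strand, where reads may not have been told apart.

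**Figure D4:**
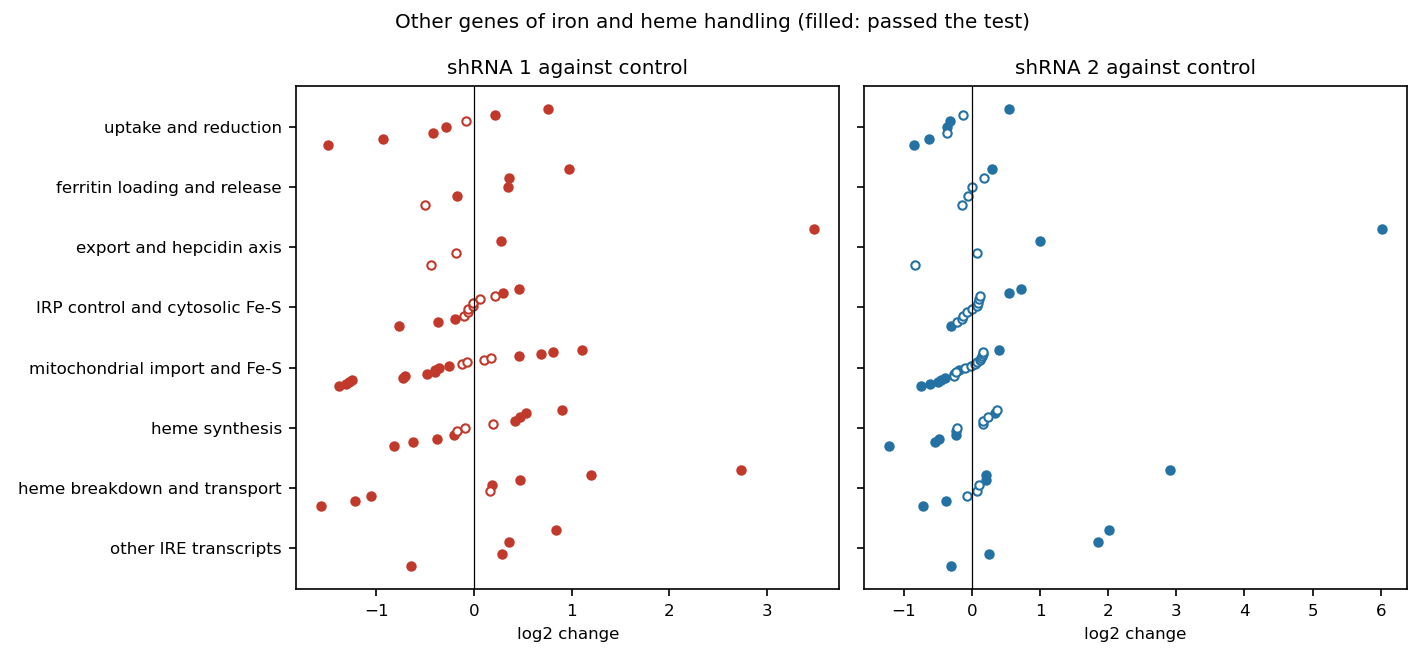
Log2 difference from the control of the 70 tested genes in 8 lists, shRNA 1 on the left and shRNA 2 on the right; each point is a gene, filled where the edgeR adjusted p was under 0.05, and the horizontal scales differ. Points on the right edge are HAMP, whose fitted values rest on 1 read in the control; in the mitochondrial list 11 of 19 genes were lower with shRNA 1 and 7 with shRNA 2, beside 28.7% and 25.3% of all genes tested.

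Of 7 other uptake and reduction genes, 2 were higher and 4 lower with shRNA 1, and 1 was higher and 4 lower with shRNA 2. TFR2, the second transferrin receptor, fell from 40.8 CPM to 14.5 with shRNA 1 (log2 −1.49, edgeR adjusted p = 2.33e-11) and to 22.6 with shRNA 2 (log2 −0.85, edgeR adjusted p = 2.13e-07). The zinc and iron importer SLC39A14 fell with both (log2 −0.28, edgeR adjusted p = 0.00351, and −0.64, edgeR adjusted p = 3.71e-07). With total counts the first was −0.089 (adjusted p = 0.291), beside a median of 0.21 over all genes. SLC39A8, another such importer, fell from 139 to 104 CPM with shRNA 1 and rose to 203 with shRNA 2. CYBRD1, a ferric reductase, went the other way, from 92.3 CPM to 156 with shRNA 1 and to 74.0 with shRNA 2. Both differences of SLC39A8 and CYBRD1 between the shRNAs passed the test (log2 0.97, edgeR adjusted p = 6.85e-12, and −1.08, edgeR adjusted p = 1.86e-11). SNX3, which helps return the receptor to the surface, was at 116, 135 and 106 CPM in control, shRNA 1 and shRNA 2.

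Of 5 genes of ferritin loading and release, 3 were higher and 1 lower with shRNA 1, and 1 was higher and none lower with shRNA 2. PCBP2, an iron chaperone, rose from 276 to 353 CPM with shRNA 1 (log2 0.35, edgeR adjusted p = 0.000115) and was at 276 with shRNA 2. PCBP1, the chaperone that loads ferritin, was at 136, 96.2 and 122 CPM, and neither difference from the control passed the test (edgeR adjusted p = 0.0509 and 0.557). The shRNA 1 libraries read 63.2, 74.7, 118 and 129 CPM, and the PCBP1 difference was −0.98 (adjusted p = 1.86e-10) without libraries 3 and 4 and −0.14 (adjusted p = 0.112) without libraries 1 and 2. With all libraries it passed with RLE scaling (adjusted p = 0.0488) and DESeq2 (0.0372), and it also passed without control library 2, shRNA 1 library 3 or shRNA 1 library 4 (0.0103 to 0.0467). With shRNA 2, PCBP1 passed in a fit of 2 groups only (adjusted p = 0.0363) and without shRNA 1 libraries 1 and 2 (0.0338). Exons of PCBP1-AS1 on the other strand cover 914 of the 1750 PCBP1 exonic bases, where reads of the 2 may not have been told apart. HERC2, a ubiquitin ligase linked to the turnover of the ferritin receptor NCOA4, rose with shRNA 2 (log2 0.30, edgeR adjusted p = 0.00123) and was at −0.18 with shRNA 1. NCOA4 had no match in the table.

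Of 4 genes of export and the hepcidin axis, 2 were higher with each shRNA and none passed as lower. HAMP encodes hepcidin, the peptide that closes ferroportin. It had 1 read over the 4 control libraries, 21 over the shRNA 1 libraries, 19 of them in library 2, and 112 over the shRNA 2 libraries (22, 36, 24 and 30). The shRNA 2 ratio to the control, scaled by library size, was 92.0 (exact 95% interval 16.2 to 3670, counting error only). For shRNA 1 it was 16.8 (2.71 to 696), and without library 2 the test was not passed (edgeR adjusted p = 0.596). SMAD4, a transducer of the signal that induces HAMP, rose with shRNA 1 (83.4 to 101 CPM, edgeR adjusted p = 0.0021). SMAD4 overlapped the control with shRNA 2 and did not pass the test (87.5 CPM, log2 0.07, edgeR adjusted p = 0.438). The co-receptor NEO1 rose with shRNA 2 (19.1 to 38.6 CPM, edgeR adjusted p = 0.00438). With shRNA 1, NEO1 was at 14.3 CPM (log2 −0.43, edgeR adjusted p = 0.164) and did not pass the test.

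Of 12 genes that control the IRPs or build cytosolic iron-sulfur clusters, 2 were higher and 3 lower with shRNA 1, and 2 higher and 1 lower with shRNA 2. FBXL5, the iron-sensing subunit of the ligase that degrades IRP2, rose from 29.6 CPM to 36.6 with shRNA 1 (log2 0.30, edgeR adjusted p = 0.00804) and to 48.9 with shRNA 2 (log2 0.72, edgeR adjusted p = 6.77e-07). Its partners in that ligase were at 123, 108 and 130 CPM (CUL1) and at 85.5, 85.3 and 90.6 CPM (SKP1) in control, shRNA 1 and shRNA 2. CIAO1, of the cytosolic cluster targeting complex, fell with shRNA 2 (91.5 to 74.2 CPM, edgeR adjusted p = 0.000297). CIAO1 was at 95.3 CPM with shRNA 1 (log2 0.06, edgeR adjusted p = 0.431). That difference passed as higher with total counts (0.25, adjusted p = 0.00103), where the median of all genes was 0.21.

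Of 19 genes of mitochondrial iron import and iron-sulfur cluster assembly, 4 were higher and 11 lower with shRNA 1, and 1 higher and 7 lower with shRNA 2, where 28.7% and 25.3% of all genes tested were lower. The median log2 difference was −0.35 with shRNA 1 and −0.10 with shRNA 2. HSPA9, the chaperone of cluster transfer, fell from 457 CPM to 277 with shRNA 1 (log2 −0.72, edgeR adjusted p = 4.73e-09) and to 298 with shRNA 2 (log2 −0.62, edgeR adjusted p = 9.46e-08). GLRX5, a glutaredoxin that carries clusters, fell from 72.0 to 30.3 CPM with shRNA 1 (edgeR adjusted p = 3.33e-11) and was at 76.0 with shRNA 2, and the shRNAs differed by 1.33 (edgeR adjusted p = 1.1e-11). Mitoferrin SLC25A37 fell with shRNA 2 (113 to 85.7 CPM, edgeR adjusted p = 9.67e-05) and was at 104 with shRNA 1.

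Of 11 heme synthesis genes, 4 were higher and 4 lower with shRNA 1, and 1 was higher and 5 lower with shRNA 2. ALAS1, the first enzyme of the pathway, rose from 82.9 to 111 CPM with shRNA 1 (edgeR adjusted p = 8.99e-05). With shRNA 2 it was at 70.3 CPM (edgeR adjusted p = 0.0149). The call with shRNA 2 was lost without control library 3 or shRNA 2 library 3. It was also lost with total counts, where the median of all genes was 0.082. Ferrochelatase FECH, which inserts the iron, fell with shRNA 2 (60.6 to 43.4 CPM, edgeR adjusted p = 3.35e-05) and was at 53.9 with shRNA 1. CLPX, an unfoldase that acts on the first enzyme, fell with shRNA 2 (97.0 to 66.5 CPM, edgeR adjusted p = 3.58e-06).

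Of 8 genes of heme breakdown and transport, 4 were higher and 3 lower with shRNA 1, and 3 higher and 2 lower with shRNA 2. HMOX1, the inducible heme oxygenase that frees iron from heme, rose from 0.531 ± 0.221 CPM to 3.68 ± 1.15 with shRNA 1 and 4.16 ± 1.15 with shRNA 2 (SD, n = 4; log2 2.73 and 2.91, edgeR adjusted p = 7e-07 and 3.81e-07). The level stayed low, at 3 to 14 reads per control library and 42 to 98 per knockdown library. The heme transporter SLC48A1 rose from 26.7 to 61.4 CPM with shRNA 1 (log2 1.20, edgeR adjusted p = 2.5e-11) and was at 31.0 with shRNA 2. The heme-sensing repressor BACH1 was at 62.4, 70.7 and 59.6 CPM, and the heme exporter FLVCR1 at 38.6, 43.2 and 44.5 CPM, in control, shRNA 1 and shRNA 2.

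Of 4 other transcripts known to carry an IRE, 3 were higher with each shRNA (PFN2, EPAS1 and CDC14A) and 1 was lower with each. Of the 3 named, only CDC14A had a match over a full window of 30 bases in the motif search above. PFN2 rose from 7.30 CPM to 13.2 with shRNA 1 (edgeR adjusted p = 5.64e-05) and to 29.7 with shRNA 2 (edgeR adjusted p = 1.58e-10). EPAS1, the hypoxia factor HIF-2α, rose from 14.5 to 52.3 CPM with shRNA 2 (log2 1.85, edgeR adjusted p = 2e-12) and was at 17.6 with shRNA 1. CDC14A rose with shRNA 1 (24.9 to 32.0 CPM, edgeR adjusted p = 0.00241) and was at 29.5 with shRNA 2.

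Single calls were followed through the leave-outs for the named genes only. Besides the cases given above, some of these calls were lost when 1 library was left out. With shRNA 1 these were SNX3 (control 1 or 2, shRNA 1 library 3 or 4; adjusted p up to 0.0977), HERC2 (control 1, 2 or 4, shRNA 1 library 3 or 4; up to 0.129), CUL1 (control 2 or 4, shRNA 1 library 3 or 4; up to 0.0884), CLPX (control 1, 2 or 3, shRNA 1 library 3 or 4; up to 0.0926) and EPAS1 (control 1, 3 or 4, shRNA 1 library 3 or 4; up to 0.0978). BACH1 was lost in 9 of 12 leave-outs (up to 0.198), and HAMP also without control 2, 3 or 4 (from 0.0594). With total counts HERC2 and CUL1 were at 0.013 and 0.0019 with shRNA 1, no longer below the control, beside a median of 0.21 over all genes. With shRNA 2 further lost calls were FLVCR1 (lost in 6 leave-outs, up to 0.103), SLC48A1 (7, up to 0.121) and CDC14A (5, up to 0.15). Without libraries 3 and 4 of shRNA 1, the calls with shRNA 1 of SLC39A14 (log2 −0.16, adjusted p = 0.0779), FBXL5 (0.22, 0.0828), SNX3 (0.11, 0.282), HERC2 (−0.059, 0.482), CUL1 (−0.10, 0.224), CLPX (−0.086, 0.362) and EPAS1 (0.14, 0.331) were lost, and SLC25A37 passed (−0.25, 0.00682). Without libraries 1 and 2, those of HAMP (adjusted p = 0.426) and BACH1 (0.203) were lost, while SLC39A14 was at −0.43, HERC2 at −0.32, CUL1 at −0.29 and CLPX at −0.34.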

How the data were processed

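The authors deposited raw read counts for each Ensembl gene ID, without any scaling, from RNA extracted with Trizol and a NEBNext Ultra kit, per the labels' protocols. The submitters' processing notes name hg19, STAR 2.7.3a, cutadapt 2.6 and DESeq2 but give no role for any of them. The sources used here do not say how reads were counted, on which annotation or with which strand setting. No column was left without a sample (0). The 10 libraries of 3′ end sequencing give sites by hg19 position without gene names and were not analysed here. Symbols, gene positions and UTRs came from GENCODE 29 (GRCh38), and 45342 of 48162 IDs had a symbol; of 126 list entries 124 matched (not NCOA4 and MRC1).

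Counts were tested with edgeR 4.0.16 in R 4.3.3 (TMM, filterByExpr, robust quasi-likelihood F test), with all 12 libraries in 1 fit and 9 residual degrees of freedom. P-values were adjusted over the 15834 genes tested, and a call is an adjusted p under 0.05. The SE was taken as the size of the log2 difference over the square root of the F statistic. Intervals of 95% used this SE and the t distribution with 9 degrees of freedom, so both are approximate. The script was tested on simulated counts. Totals were 12236937 to 20388437 per library; counting intervals cover counting error only. Named genes were the 8 members, FIP1L1, the 3 highest tested genes of each list and the 5 profiles closest to TFRC; the exceptions are named as such, and 1 gene that the rule gives is not reported here. The members and lists were chosen with earlier results of these data known. Alternatives were RLE scaling, total counts, DESeq2 1.42.0, no filter, 2 groups only, a replicate block and leaving out each library. Ferritin pseudogene reads and pairs of shRNA 1 libraries were alternatives chosen after seeing the data.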

Additional observations from a re-analysis of the deposited data

Results flagged for a closer look

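Of 120 groups of 4 libraries examined for the members and named genes, 6 held 1 library far from the other 3; chance gives about 1 in 20. None of the 6 was a value of the 8 members. HAMP was at 0.0747 CPM in control library 1 and at 0 in the other control libraries. HAMP was at 0.874 CPM in shRNA 1 library 2 and at 0 to 0.0658 in the others of that group. ALAS1 was at 78.1 CPM in shRNA 2 library 4 and at 67.0 to 68.1 in the others. FECH was at 45.1 CPM in shRNA 2 library 3 and at 42.7 to 42.9 in the others. FLVCR1 was at 37.6 CPM in control library 2 and at 38.9 to 39.2 in the others. FLVCR1 was also at 39.1 CPM in shRNA 1 library 3 and at 44.2 to 44.9 in the others.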

How the results depend on the processing

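Over all alternatives, the members called with shRNA 1 were 5 to 6 of 8. With shRNA 2 they were 5 to 8, and between the shRNAs 5 to 6. The other iron genes called were 42 to 53, 28 to 40 and 44 to 51 of those tested, in the same order. The calls over all genes moved too: with shRNA 1 they were 9477 of 29119 without a filter and 9548 of 15834 with total counts. Nothing is therefore read from these ranges. In the main fit, 47 of 70 other iron genes were called between the shRNAs (67.1%), beside 58.7% of all genes. Scaling by total counts moved the median log2 difference of all genes to 0.21 with shRNA 1, 0.082 with shRNA 2 and −0.13 between the shRNAs, so its values are to be read against these shifts. Under it the sign changed for SLC40A1 (0.16), HERC2 (0.013), CUL1 (0.0019), SKP1 (0.19), SLC25A37 (0.075) and FECH (0.023) with shRNA 1, for BACH1 (0.016) and PCBP2 (0.081) with shRNA 2, and between the shRNAs for ACO1 (−0.053), SKP1 (−0.024), HSPA9 (−0.0019) and FLVCR1 (−0.067). Of these, only HERC2 and CUL1 with shRNA 1 had passed the test. PCBP2 with shRNA 2 lay near 0 and was positive with RLE (0.00064), DESeq2 (0.0023), no filter (0.011) and 2 groups only (1.7e-05). SKP1 with shRNA 1 was 0.0086 with 2 groups only, IREB2 between the shRNAs 0.013 with no filter and 0.14 without shRNA 1 libraries 1 and 2, and ACO1 between the shRNAs −0.042 without libraries 3 and 4. Without libraries 1 and 2 of shRNA 1, SKP1 was 0.086 with shRNA 1 and −0.0066 between the shRNAs, and PCBP1 −0.011 between the shRNAs; without libraries 3 and 4, PCBP2 was 0.0037 with shRNA 2.

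Leaving out 1 library gave −0.11 to 0.0064 for SLC40A1 with shRNA 1, −0.00052 to 0.11 for ACO1 and −0.075 to 0.048 for IREB2 between the shRNAs, −0.036 to 0.033 for PCBP2 with shRNA 2, −0.071 to 0.072 for SKP1 with shRNA 1 and −0.00082 to 0.071 for FLVCR1 between the shRNAs. The log2 ratio of FTH1 to FTL then differed by 0.66 to 0.90 with shRNA 1, −0.19 to 0.027 with shRNA 2 and −0.98 to −0.74 between the shRNAs, and that of IREB2 to ACO1 by −0.40 to −0.32, −0.46 to −0.38 and −0.12 to −0.038. The 4 ratio calls had adjusted p up to 0.0857 with 1 library left out; with 7 libraries the exact test has little room.

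Samples with the same replicate number correlated from −0.083 to 0.27 in their deviations. This cannot settle whether same-numbered libraries shared a batch. In NEO1, libraries 3 and 4 lay above libraries 1 and 2 in every group, and such a split was not tested in other genes one by one. In the chi-square statistic given above, control libraries gave 3.59 (1 and 2), 5.45 (3 and 4) and 4.92 to 7.34 across these pairs. The shRNA 1 libraries gave 11.2, 3.91 and 14.1 to 29.4 in the same order, and the shRNA 2 libraries 5.81, 4.04 and 3.89 to 6.37. With the replicate block 9123, 8005 and 9337 genes were called, against 9076, 7912 and 9299 without it. In the block NEO1 (log2 −0.37, adjusted p = 0.00891) and PCBP1 (−0.54, 0.0291) were called lower with shRNA 1, and HAMP (0.0519) and BACH1 (0.0561) with shRNA 1 and SLC48A1 (0.0572) with shRNA 2 were not called. The ratio differences in the block were 0.78 and −0.86 (FTH1 to FTL, shRNA 1 against control and between the shRNAs) and −0.35 and −0.42 (IREB2 to ACO1), each with adjusted p = 0.188, since 4 pairs cannot pass the threshold. In other sign changes and lost calls the cause was not tested. Low depth limits HAMP and HMOX1 most.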
